A study of Homo sapiens with 6 samples.

Results

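SFTPD, the gene of surfactant protein D (SP-D), and 8 genes of proteins that bind SP-D or act in receptor complexes with such proteins were followed in A549 cells, a human lung adenocarcinoma line. They were chosen by name, as the rows of the deposited count table whose symbol is SFTPD, LRP1, CALR, SIRPA, CD47, TLR2, TLR4, LY96 or CD14. All 9 were found among 57773 genes, each in a single row, and 7 of the 9 passed the filter on low counts that left 15848 genes for testing. The vehicle group held 3 libraries of cells given an equal volume of the elution buffer, and the rhSP-D group held 3 libraries of cells given recombinant human SP-D at 10 µg/ml; exposure lasted 48 h in each group. A549 is a single established line, grown here in medium with fetal bovine serum, and the labels do not say whether the replicates were separate cultures. P-values therefore measure the spread between these libraries, which may be technical.

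SP-D is a collectin, a secreted lectin with a collagen-like stalk that binds sugars on microbes and on host glycoproteins through its calcium-dependent head. In the lung it is made by alveolar type II cells and some airway cells. Its heads can bind SIRPA, an inhibitory receptor of myeloid and some other cells whose usual partner is CD47, and its collagen tails, when clustered, can bind calreticulin (CALR) at the surface together with LRP1, a large endocytic receptor. SP-D also binds the Toll-like receptors TLR2 and TLR4, LY96 (MD-2, the lipopolysaccharide-binding partner of TLR4) and CD14, the co-receptor that hands lipopolysaccharide over. RNA sequencing measures the transcripts of these proteins, not the amount of protein at the cell surface or the added SP-D.

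The DNA before the start sites of SFTPD and CALR is shown because these genes stood far apart in level in every library and because factors known to act at the SFTPD promoter were among the genes counted. Sequences are from RefSeq's GRCh38.p14, 5′ to 3′ on the strand of the gene, and end at the RefSeq start site for SFTPD and 31 bases before it for CALR. Capitals mark motif matches on either strand. The letters searched were TGANTCA for AP-1 proteins. For C/EBP proteins they were TTGCNNAA. Forkhead factors were searched as TGTTTNC. For the lung lineage factor NKX2-1 the letters were CAAGTG. The TATA box was searched as TATAAA. The box bound by NF-Y was searched as CCAAT. The endoplasmic reticulum stress element, named here without its letters, contains that box.
SFTPD, chr10:79949106-79949355, minus strand: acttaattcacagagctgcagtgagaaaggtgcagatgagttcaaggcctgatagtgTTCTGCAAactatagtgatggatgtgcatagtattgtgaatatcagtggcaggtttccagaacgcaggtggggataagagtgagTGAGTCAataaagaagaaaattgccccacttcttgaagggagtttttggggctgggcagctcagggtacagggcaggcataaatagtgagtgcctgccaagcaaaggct
CALR, chr19:12938359-12938577, plus strand: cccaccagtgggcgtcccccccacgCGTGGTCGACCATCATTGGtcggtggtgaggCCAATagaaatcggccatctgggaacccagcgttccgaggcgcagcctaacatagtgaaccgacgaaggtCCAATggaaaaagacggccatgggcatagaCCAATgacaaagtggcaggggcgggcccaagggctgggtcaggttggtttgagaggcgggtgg
The SFTPD window holds an AP-1 match, TGAGTCA, from 109 to 103 bases before the start, and a C/EBP match on the opposite strand from 193 to 186 bases before it. It has no match to the other motifs and lies in no exon of SFTPD in GENCODE 29. An AP-1 match occurs in 6.57% of 35116 RefSeq promoter windows of 250 bases, and a C/EBP match in 9.05%. The CALR window of 250 bases holds 4 CCAAT matches and an endoplasmic reticulum stress element on the opposite strand, from 225 to 207 bases before the start, which overlaps the CCAAT match farthest from the start. Only 0.074% of windows hold that element, against 32.01% with CCAAT. The last 31 of its 250 bases, with a TATAAA match, are an exon in GENCODE 29 and are not printed. The SFTPD window has 1 CpG, that of TLR4 5, CD14 5, CALR 18, LRP1 20, TLR2 26 and CD47 39, against a median of 11 over all windows. Of the 9 genes 7 matched a window, and SIRPA and LY96 did not. These matches describe the letters of the windows only.

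Total counts ran from 11396193 in vehicle replicate 1, the shallowest library, to 26030880 in rhSP-D replicate 1, the deepest, so that 1 count was worth between 0.0391 and 0.0865 CPM (counts relative to library size after TMM scaling). Epithelial keratin RNA was abundant: the 6 epithelial markers summed to 11997 to 12124 CPM in vehicle and to 12510 to 12743 in rhSP-D, most of it KRT8 and KRT18 (KRT7 and KRT18 rose), although EPCAM was at 1.82 and 1.99 CPM. Of 10 alveolar type II markers only ABCA3 and NAPSA were abundant enough to test, 6 had fewer than 10 counts over all libraries, and SLC34A2 had 0. As CD14, SIRPA, TLR2 and TLR4 are best known from myeloid cells, markers of macrophages and monocytes were read as well. Of these 12 genes 9 had fewer than 10 counts in all, AIF1, CD163 and TYROBP had 0, and the pan-leukocyte gene PTPRC had 1. The list summed to 82.98 to 87.6 CPM in vehicle and to 90.3 to 96.1 in rhSP-D, nearly all of it CD68, a lysosomal protein also made outside the myeloid lineage, which rose by 8.94% (edgeR adjusted p = 0.0161). Without CD68 the other 11 summed to 0.895 to 2.25 CPM in vehicle and to 0.803 to 1.29 in rhSP-D. Fibroblast markers summed to 10.9 to 15.02 CPM over all libraries, most of it COL1A1, and to 1.33 to 2.41 CPM without that gene. Endothelial markers summed to 0.0865 to 0.43 CPM over all libraries, with CLDN5 the most abundant. In bulk RNA, fewer cells of a type and less RNA per cell cannot be told apart.

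The 9 genes spanned a wide range of levels, and the order of the better expressed ones was the same in the 6 libraries. Levels of different genes were compared per length, as reads scaled for merged exon length and library size (RPKM). CALR, which encodes a calcium-binding chaperone of the endoplasmic reticulum, was at 251 ± 4.42 RPKM (SD over the 6 libraries), 22.4 times the level of SIRPA, the next in order, at 11.2 ± 0.502 RPKM. CD47 followed at 3.95 ± 0.242 RPKM, LRP1 at 3.21 ± 0.151 RPKM and CD14 at 1.99 ± 0.183 RPKM. The 6 values of each of these genes lay wholly above those of the next. SFTPD itself was at 0.502 ± 0.125 RPKM, 500-fold below CALR, and TLR4 was at 0.133 ± 0.0229 RPKM. LY96 and TLR2 came last with values that overlapped, LY96 on 4 counts and TLR2 on 25 counts in all. The order of the means was the same with the longest transcript in place of the merged exons, but the values of CD47 and LRP1 were then 4.42 to 5.31 and 4.27 to 4.798 RPKM and overlapped. CD47 RNA stood at 0.312 to 0.395 of the SIRPA level per length, with the groups interleaved.

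**Figure D1:**
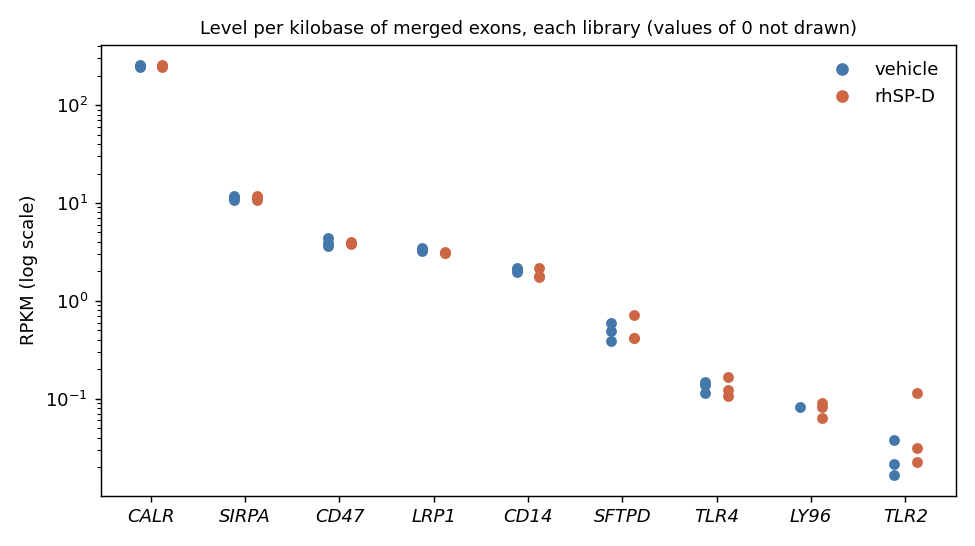
Each point is the RPKM of a gene in 1 library, on a log axis, with vehicle in blue and rhSP-D in orange, and the genes ordered by their mean. CALR lies near 251 RPKM in every library, SFTPD near 0.502 RPKM, and the 2 libraries with 0 counts of LY96 are not drawn.

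None of the 7 tested SP-D genes passed the test of rhSP-D against vehicle. Over all 15848 tested genes 2526 changed at an adjusted p under 0.05 (15.9%), of which 9.31% of the genes tested were higher and 6.63% lower in rhSP-D. That split rests on the scaling: 58.4% of the changed genes were higher, against 30.4% with library totals alone. Of the 7 tested SP-D genes 0 passed edgeR's quasi-likelihood test, and 1, LRP1, had an unadjusted p under 0.05, as did 28.1% of all genes. DESeq2 and limma-voom also called 0 of them, DESeq2 giving no adjusted p for SFTPD, TLR4 and CD14. Log2 changes were above 0 for 3 of the 7 and below 0 for 4, with a median of -0.03, beside -0.006 over all tested genes. The 3 rhSP-D values lay wholly on 1 side of the 3 vehicle values for 1 of the 7, against 31.5% of all genes tested. What the data can show differs between members, since the 95% intervals of the fold changes were narrow for the abundant genes and wide for the scarce ones. The widest ran from -39.1% to 80.9%, for SFTPD.

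**Figure D2:**
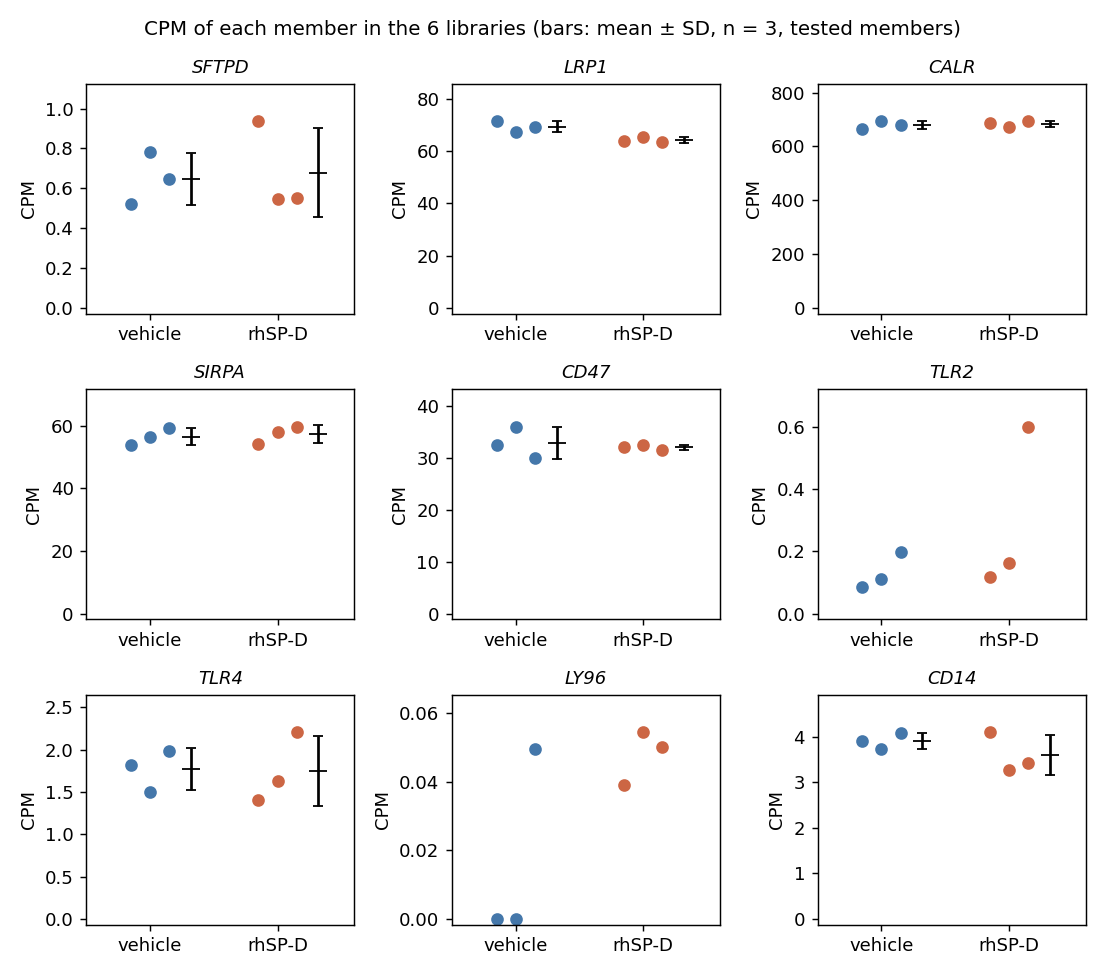
CPM of each gene in the 3 vehicle (blue) and 3 rhSP-D (orange) libraries, on axes from 0, with mean ± SD (n = 3) for the 7 tested genes. LRP1 alone has its 3 rhSP-D values, 63.6 to 65.5 CPM, below all 3 vehicle values, 67.3 to 71.5 CPM, and the TLR2 value of rhSP-D replicate 3 stands above the rest.

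**Figure D3:**
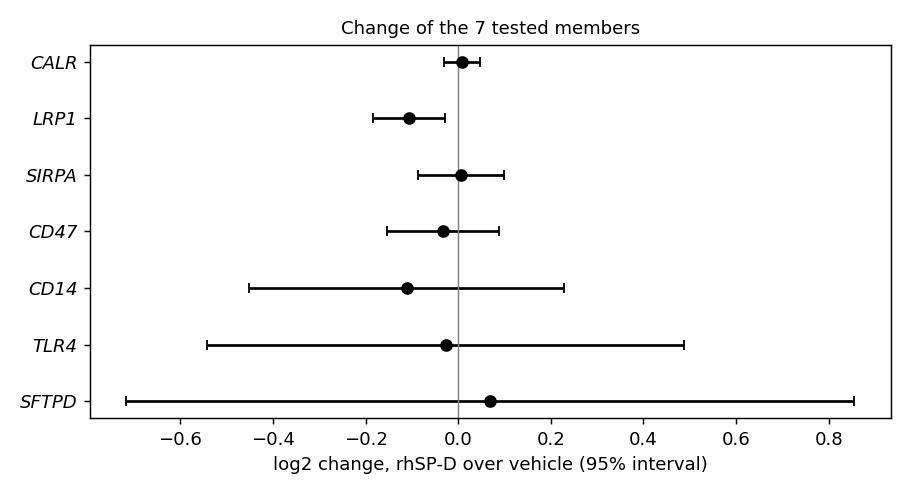
Log2 change of rhSP-D over vehicle for the 7 tested genes, with 95% intervals from the quasi-likelihood fit. The interval of LRP1 lies below 0, those of the other 6 genes include 0, and the intervals widen from CALR to SFTPD as counts become fewer.

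LRP1, the endocytic receptor that takes up proteases, lipoproteins and complexes with calreticulin, had the smallest p of the 7. Its RNA was at 71.5, 67.3 and 69.3 CPM in vehicle replicates 1, 2 and 3 and at 63.7, 65.5 and 63.6 CPM in rhSP-D replicates 1, 2 and 3. All 3 rhSP-D libraries lay below all 3 vehicle libraries, a separation in this direction that 15.4% of the genes tested shared. The means were 69.3 ± 2.11 and 64.3 ± 1.06 CPM (SD, n = 3). The log2 change was -0.11 ± 0.04 (SE), or -7.1%, with a 95% interval from -12.0% to -1.92%, and it missed the threshold (edgeR adjusted p = 0.0569). Replicates varied close to or less than counting error alone would give, with coefficients of variation of 3.04% in vehicle and 1.64% in rhSP-D beside 2.96% and 2.705% for counts of that size. The change kept its sign in 16 of 16 alternatives, from -0.15 to -0.08, while the edgeR, DESeq2 or limma adjusted p ran from 0.00724 to 0.22. It passed with library totals alone (edgeR adjusted p = 0.00724) and with genes under 1 CPM left out of the test (edgeR adjusted p = 0.0479). Leaving out 1 library at a time gave edgeR adjusted p from 0.0501 to 0.172.

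**Figure D4:**
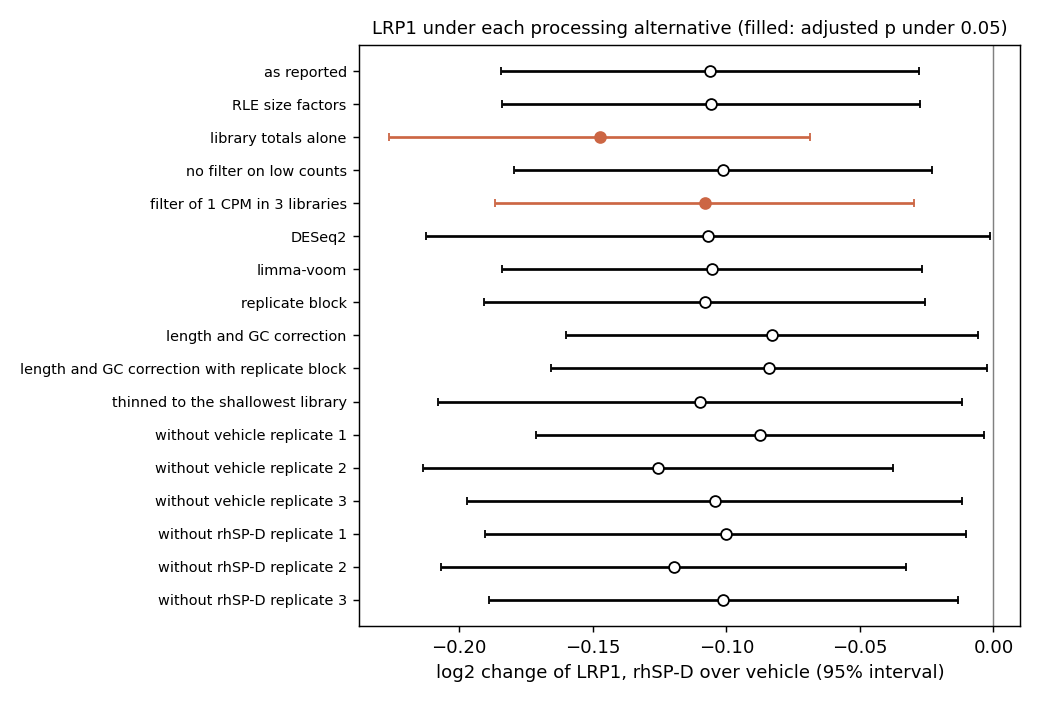
Log2 change of LRP1 with its 95% interval, as reported and under each of the 16 alternatives, filled where the adjusted p was under 0.05. All points lie between -0.15 and -0.08, and the filled ones are library totals alone and the filter of 1 CPM in 3 libraries.

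LRP1 (ENSG00000123384) lies on chromosome 12 from 57128493 to 57213351 in GRCh38, on the plus strand, head to head with STAT6, the transcription factor named in the title of the series. Their exons share 59 nt on opposite strands, out of 20839 nt of merged LRP1 exons, and LRP1-AS shares another 112 nt. Together these overlaps make up 0.821% of the LRP1 exons, and without strand the reads there could belong to either gene. STAT6 had 1084, 1704 and 1932 counts in vehicle and 2552, 1748 and 1906 counts in rhSP-D. By comparison LRP1 had 826, 1206 and 1393 in the vehicle libraries, and 1632, 1201 and 1267 in the treated ones. For both genes these are raw counts, not scaled for library depth, and they cannot be compared between groups as they stand. The genes most like LRP1 across the 6 libraries, among 9811 others of at least 10 CPM, were SPTY2D1 (Pearson r = 0.997) and GOLGA1 (r = 0.996). These correlations hold only 6 points that share the treatment and the library depth.

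Of 22 receptors of the LRP1 family and LRP1 partners 20 were tested, and 3 rose and 4 fell, with a median log2 change of -0.02, where 9.31% of all genes tested rose and 6.63% fell. LRPAP1, the chaperone that keeps newly made LRP1 from binding ligands on its way to the surface, rose from 153 ± 7.71 to 171 ± 2.62 CPM (SD, n = 3), with a log2 difference of 0.16 ± 0.03 (SE, edgeR adjusted p = 3.8e-04). FURIN, the protease that cleaves the LRP1 precursor, rose by 6.07%, and SNX17, a sorting protein that binds the LRP1 tail, rose by 6.43%. Among the receptors the Wnt co-receptor LRP6 fell by 10.1% and the reelin receptor LRP8 fell by 12.1% (log2 changes -0.15 and -0.19). GULP1, an engulfment adapter that binds the LRP1 tail, fell by 14.2%, a call that ended when length and GC trends were removed and when libraries were thinned to the shallowest. With length and GC trends removed 2 of the 20 passed, 1 higher and 1 lower, while LRPAP1 kept its call in all 16 alternatives. With library totals alone 1 gene of the list was higher and 6 were lower. LRP2, the relative of LRP1 in absorptive epithelia, had 16 counts over the 6 libraries and was not tested.

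CALR did not pass the test, and its interval was the narrowest of the 7. Its RNA stood at 665, 695 and 679 CPM in vehicle replicates 1, 2 and 3 and at 687, 671 and 694 CPM in rhSP-D. High and low values occurred in each group, and the ranges overlapped almost wholly. The means were 680 ± 14.6 and 684 ± 11.5 CPM (SD, n = 3), with a log2 difference of 0.01 ± 0.02 (SE, edgeR adjusted p = 0.838). The 95% interval ran from -2.12% to 3.29%. With library totals alone the value was -0.033, and with the length and GC trends removed it was -0.039, neither of them past the threshold. CALR (ENSG00000179218, chromosome 19, 12938578 to 12944489) was more abundant than 98.97% of the genes tested. Its exons overlap 270 nt of AC092069.1 on the other strand, a gene with 0 counts in every library. The best matched profiles over the 6 libraries were those of GPSM1 (Pearson r = 0.995) and AIMP1 (r = 0.98). They were picked as the highest among 9811 genes on only 6 points, and neither gene passed (edgeR adjusted p = 0.775 and 0.56).

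Of 16 partners of calreticulin in the endoplasmic reticulum all were tested, and 5 rose and 2 fell, with a median log2 change of 0.01. Over all genes tested 15.9% changed, and the list was not tested against that share. CANX, the membrane-bound homologue of calreticulin that shares its glycoprotein clients, fell from 1252 ± 11.5 to 1162 ± 20.9 CPM (SD, n = 3), with a log2 difference of -0.11 ± 0.02 (SE, edgeR adjusted p = 2.64e-05). That call ended with the length and GC trends removed, where the list held 4 higher and 0 lower genes. Scaled by library totals alone, it held 2 higher and 4 lower. PPIB, a proline isomerase of the endoplasmic reticulum, rose from 715 ± 14.1 to 803 ± 14.6 CPM, with a log2 difference of 0.17 ± 0.02 (SE, edgeR adjusted p = 1.58e-07). ERP29, a chaperone-like protein with a thioredoxin fold, rose from 170 ± 1.25 to 191 ± 1.08 CPM. The oxidoreductase PDIA3, which works together with calreticulin and calnexin, was at 379 CPM in each group (log2 change 0.001, edgeR adjusted p = 0.974). HSPA5, the chaperone BiP, which is induced together with CALR in the unfolded protein response, was at 697 and 678 CPM and did not pass (log2 change -0.04, edgeR adjusted p = 0.155).

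SIRPA and CD47, the receptor and counter-receptor of the inhibitory signal against engulfment, did not pass the test. SIRPA was at 53.8, 56.3 and 59.2 CPM in vehicle replicates 1, 2 and 3 and at 54.05, 57.9 and 59.7 CPM in rhSP-D. The groups covered nearly the same range. Its log2 change was 0.01 ± 0.05 (SE, edgeR adjusted p = 0.949), with a 95% interval from -5.77% to 7.16%. CD47 was at 32.4, 36.1 and 30.03 CPM in vehicle and at 32.1, 32.6 and 31.6 CPM in rhSP-D. All rhSP-D values lay inside the vehicle range, which was wider (coefficients of variation of 9.27% and 1.45%, where counting error gives 4.295% and 3.83%). The log2 change of CD47 was -0.03 ± 0.06 (SE, edgeR adjusted p = 0.78), with an interval from -10.1% to 6.3%, and it was 0.066 with the length and GC trends removed.

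SIRPA (ENSG00000198053) lies on chromosome 20 from 1894167 to 1940592, and CD47 (ENSG00000196776) on chromosome 3 from 108043094 to 108091862. Of 5068 nt of merged SIRPA exons 208 nt (4.1%) overlap AL117335.1 on the other strand, and CD47 has no such overlap. SIRPA is similar in sequence to SIRPB1 and SIRPG, so reads could be assigned to the wrong copy. SIRPB1 had 58 counts and SIRPG 3 counts over the 6 libraries, against 6459 of SIRPA. Wrongly assigned reads would alter these counts too, so they cannot settle this. The profiles most like SIRPA were those of SEPHS1 (Pearson r = 0.969) and PDP1 (r = 0.962), and those most like CD47 were SURF2 (r = 0.991) and LPCAT2 (r = 0.977), over 6 libraries. These too were picked as the highest among 9811 genes on only 6 points. Between SIRPA and CD47 themselves r was -0.358.

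Of 16 ligands, relatives and signal proteins of CD47 and SIRPA 15 were tested, and 1 rose and 2 fell, with a median log2 change of -0.05. Beside this stand 9.31% of all genes tested that rose and 6.63% that fell, and the list was not tested against these shares. PTPN11, the phosphatase SHP-2 that docks on the phosphorylated SIRPA tail, fell from 139 ± 4.5 to 125 ± 5.17 CPM (SD, n = 3), with a log2 difference of -0.15 ± 0.03 (SE, edgeR adjusted p = 0.00163), a call that ended with the length and GC trends removed (log2 change -0.06). UBQLN1, a ubiquilin that binds the CD47 tail, fell from 110 ± 2.01 to 97.5 ± 2.73 CPM, with a log2 difference of -0.18 ± 0.03 (SE, edgeR adjusted p = 1.44e-04). UBQLN1 stood at -0.097 with the length and GC trends removed (edgeR adjusted p = 0.041), and the call ended with the replicate block as well (-0.093, edgeR adjusted p = 0.073). SRC, a kinase that can phosphorylate SIRPA, rose by 4.59%, and passed in 6 of 16 alternatives. Under library totals alone 0 genes of the list were higher and 4 lower. THBS1, the secreted thrombospondin that binds CD47, was at 52.7 and 51.6 CPM (edgeR adjusted p = 0.831). QPCTL, the enzyme that forms the pyroglutamate needed for SIRPA to bind CD47, was at 24.9 and 26.8 CPM (edgeR adjusted p = 0.266).

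Transcripts of the lipopolysaccharide receptor were scarce in both groups. TLR4, the signalling subunit, had 21, 27 and 40 counts in vehicle replicates 1, 2 and 3 and 36, 30 and 44 counts in rhSP-D. On the CPM scale the values were 1.82, 1.51 and 1.99 in vehicle and 1.41, 1.64 and 2.21 in rhSP-D, and the highest and the lowest library were both treated ones. The log2 change was -0.03 ± 0.25 (SE, edgeR adjusted p = 0.965), with a 95% interval from -31.3% to 40.2%. LY96, without which TLR4 does not bind lipopolysaccharide, had 0, 0 and 1 counts in vehicle and 1 count in each rhSP-D library. Sums of 1 and 3 counts are at or under the floor of 3 counts per group, which corresponds to 0.0605 CPM for vehicle and 0.047 for rhSP-D, so no fold is given.

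CD14, the co-receptor, was the better expressed part of this complex. It had 45, 67 and 82 counts in vehicle and 105, 60 and 68 counts in rhSP-D, or 3.89, 3.74 and 4.08 CPM and 4.1, 3.27 and 3.41 CPM. The rhSP-D libraries held the highest value and the lowest, so the groups overlapped. The log2 change was -0.11 ± 0.17 (SE, edgeR adjusted p = 0.725), as large as that of LRP1 but with an interval from -26.9% to 17.2%. CD14 RNA was at 10.9 to 20.5 times the level of TLR4 per length. TLR2, which recognises bacterial lipopeptides, had 1, 2 and 4 counts in vehicle and 3, 3 and 12 counts in rhSP-D and was too scarce to test. Its rate in rhSP-D was 1.997 times that in vehicle, with an exact 95% interval from 0.796 to 5.66 that covers counting error only. A single library, rhSP-D replicate 3, gave 12 of the 18 treated counts, and without it the ratio was 0.967 (0.269 to 3.36). Without rhSP-D replicate 1, the deepest library, it was 2.78 (1.07 to 8.05).

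In the genome TLR2 (ENSG00000137462) lies on chromosome 4 from 153684070 to 153705702, TLR4 (ENSG00000136869) on chromosome 9 from 117704175 to 117724730, CD14 (ENSG00000170458) on chromosome 5 from 140631728 to 140633701, and LY96 (ENSG00000154589) on chromosome 8. None of these 4 genes overlaps an exon of the opposite strand in GENCODE 29.

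Of 24 adapters, kinases and brakes that act in the signalling of these receptors inside the cell 23 were tested, and 5 rose and 1 fell, with a median log2 change of -0.01. This count stands beside 15.9% of all genes tested and was not tested against it. MYD88, the adapter shared by TLR2 and TLR4, was at 32.1 and 30.7 CPM and did not pass (log2 change -0.06, edgeR adjusted p = 0.499). SIGIRR, an inhibitory member of the receptor family, rose from 52.1 ± 2.38 to 59.9 ± 0.937 CPM (SD, n = 3), with a log2 difference of 0.20 ± 0.04 (SE, edgeR adjusted p = 0.00136), and CHUK, the kinase IKK-alpha, fell from 37.3 ± 1.47 to 31.4 ± 2.25 CPM, with a log2 difference of -0.25 ± 0.06 (SE, edgeR adjusted p = 0.00193). Both passed in all 16 alternatives. IRAK1, a kinase recruited by MYD88, rose by 6.81%, a call that ended with library totals alone and with the length and GC trends removed. The others that rose were IRF3 (edgeR adjusted p = 0.00316), IRAK2, which passed narrowly (edgeR adjusted p = 0.0496), and TNFAIP3, a brake on NF-kB signalling. TNFAIP3 rose by 42.7% from 4.23 CPM, with a log2 change of 0.51 ± 0.16 (SE, edgeR adjusted p = 0.0265). Its counts were few, at 57, 57 and 92 in vehicle and 143, 126 and 110 in rhSP-D. With the trends removed 2 genes of the list were higher and 1 lower, and with library totals alone 3 were higher and 4 lower. TICAM2, an adapter that shares exons with a readthrough transcript, had 0, 0 and 36 counts in vehicle and 0, 40 and 95 counts in rhSP-D, a scatter that was named after its values were seen.

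Other Toll-like receptors were scarce as well. Of 16 further TLRs, co-receptors and factors for TLR folding or transport 9 were tested, 2 rose and 0 fell, with a median log2 change of 0.02. By comparison 9.31% of all genes tested rose and 6.63% fell, and the list was not tested against these shares. TLR6, a partner of TLR2, was at 7.16 and 6.64 CPM, TLR3 at 3.26 CPM in each group, TLR5 at 2.02 and 1.44 CPM and TLR1 at 0.678 and 0.767 CPM, none of them past the threshold. TLR1 and TLR6 are similar in sequence, so their single counts are uncertain. TLR7 and TLR8 had 0 counts in every library. TLR9, named after its values were seen, had 0, 0 and 1 counts in vehicle and 0, 13 and 15 counts in rhSP-D, so that 1 treated library had none. The genes that rose were UNC93B1, which escorts nucleic acid-sensing TLRs, by 6.75%, and CNPY3, a co-chaperone of TLR folding, by 10.03%; each passed in 7 of 16 alternatives, and with library totals alone or with the length and GC trends removed neither did. HSP90B1, the chaperone gp96 that folds most TLRs, was at 1135 and 1123 CPM (edgeR adjusted p = 0.607). LBP, the serum carrier of lipopolysaccharide, was at 13.1 and 15.6 CPM (edgeR adjusted p = 0.0851).

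SFTPD (ENSG00000133661, chromosome 10, 79937740 to 79982614) was near the lower end of what could be tested, above 4.09% of the tested genes. Its counts were 6, 14 and 13 in vehicle and 24, 10 and 11 in rhSP-D, or 0.519, 0.781 and 0.646 CPM and 0.937, 0.545 and 0.552 CPM. The highest value came from the deepest library, rhSP-D replicate 1, while the other 2 treated libraries lay within the vehicle range. The spread between replicates, 20.2% in vehicle and 33.1% in rhSP-D, was like that of counting error, 30.2% and 25.8%. A log2 change of 0.07 ± 0.38 (SE, edgeR adjusted p = 0.938) became -0.26 without rhSP-D replicate 1, so no direction can be read at this depth. Of its 1321 nt of merged exons 78 nt overlap BMS1P21 on the other strand.

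Transcription factors known to act at the SFTPD promoter were well counted, apart from NKX2-1. Of 14 listed factors 13 were tested, and 1 rose and 2 fell, with a median log2 change of -0.03. Among all genes tested 9.31% rose and 6.63% fell, and the factors were not tested against these shares. NKX2-1, the lung lineage factor that drives surfactant genes, had 4 counts over the 6 libraries. The forkhead factors FOXA1 and FOXA2 were at 27 and 40.3 CPM in vehicle, and neither passed. AP-1 proteins, whose letters stand in the window printed above, were abundant: FOSL2 was at 556 and 544 CPM, JUND at 186 and 193 CPM, and JUN at 123 and 118 CPM, none of them past the threshold. FOS fell from 389 ± 5.39 to 349 ± 3.29 CPM (SD, n = 3), by a log2 value of -0.16 ± 0.02 (SE, edgeR adjusted p = 1.87e-06), and passed in all 16 alternatives. JUNB, an AP-1 protein, rose by 7.76%, a call that ended with the length and GC trends removed (log2 change 0.01). NFATC3, a calcium-regulated factor, fell by 16.6%, a call that ended with the trends removed and the replicate block together (edgeR adjusted p = 0.0599). The C/EBP factors CEBPA, CEBPB and CEBPD had log2 changes of 0.10, 0.04 and 0.08, none past the threshold. With library totals alone 1 factor was higher and 5 were lower, and with the trends removed 0 were higher and 3 lower.

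Most relatives of SP-D and most other proteins that bind it had few counts. Of 11 collectins, ficolins and their proteases 4 had 0 counts, 8 had fewer than 10 in all, and only COLEC11 and MASP2 were tested. COLEC11, a collectin with its own protease partners, was at 1.44 and 1.72 CPM (edgeR adjusted p = 0.609). SFTPA1 and SFTPA2, the genes of surfactant protein A, had 1 and 2 counts over the 6 libraries, all in vehicle. They are similar in sequence, so their single counts are uncertain. Of 9 further SP-D binding proteins 3 were tested, EGFR, DMBT1 and OSCAR, and 0 changed, at a median log2 change of -0.10. As 15.9% of all genes tested changed, 0 of 3 says little about these genes. EGFR, the epidermal growth factor receptor, was at 92.9 ± 3.16 CPM without rhSP-D and 86.8 ± 3.91 CPM with it (SD, n = 3). Its log2 change was -0.10 ± 0.04 (SE, edgeR adjusted p = 0.0505). EGFR passed in 6 of 16 alternatives, among them library totals alone, and stood at -0.02 with the length and GC trends removed. DMBT1, the scavenger receptor gp-340, was at 2.73 and 2.64 CPM, and DCN, CD209 and GPR116 had 0 counts.

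**Figure D5:**
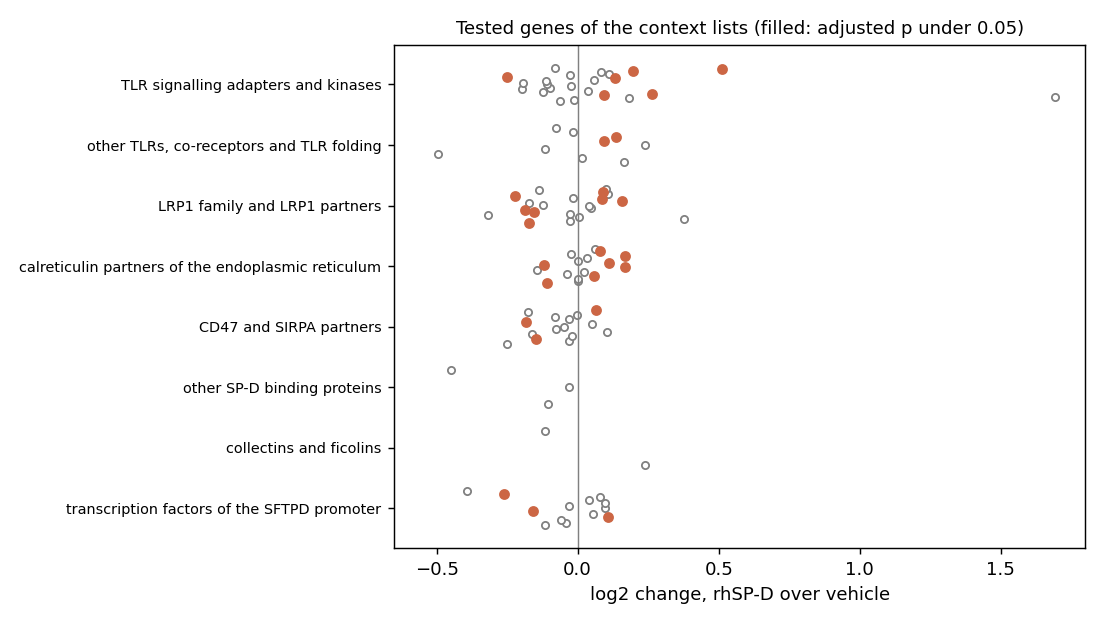
Log2 change of rhSP-D over vehicle for each tested gene of 8 lists related to SP-D, its receptors and its promoter, filled where the adjusted p was under 0.05. The changed genes lie within 0.3 of 0 except TNFAIP3 at 0.51, and the point at 1.69 is TICAM2, which did not pass.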

How the data were processed

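Poly(A) RNA of A549 cells was sequenced in paired ends from 6 libraries, prepared with an NEBNext Ultra RNA kit per the labels' protocols. The submitters' processing notes name GRCh38, featureCounts 2.0.0, STAR 2.7.0a and cutadapt. How strand and multiply mapped reads were handled, and with which annotation release, is not stated there or in the labels. The deposited values are raw counts for each Ensembl gene. Samples were grouped by their titles.

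From these counts, genes were kept by filterByExpr of edgeR 4.0.16 (minimum count 10, minimum total 15), scaled by TMM factors and tested 2-sided with a robust quasi-likelihood fit in R 4.3.3, with Benjamini-Hochberg adjustment over 15848 genes and a threshold of 0.05. A gene is said to have risen, fallen or changed when it passed. SEs come from the test statistic, and 95% intervals from the fit. TLR2 and LY96 did not pass the filter and are given as counts, with an exact conditional binomial interval (scipy 1.17.1) and a floor of 3 counts. RPKM values, coordinates and overlaps use GENCODE 29. The procedure was tested on simulated data. Totals of 11396193 to 26030880 counts set the precision.

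Named genes were the 9 genes, the up to 3 changed genes with the smallest p of each list (or else the most abundant tested gene), the 2 profiles most like each gene of at least 10 CPM, and counts and the most abundant gene of each marker list. Other genes were named for their role or after their values were seen. A gene that this rule names is not reported here. The genes and lists were chosen with earlier results of these data known. PECAM1 of the endothelial list was not matched and is not used here. Alternatives were other size factors, filters and tests (DESeq2 1.42.0, limma 3.58.1), each library left out, thinning to the shallowest library, a replicate block, and offsets from splines (5 degrees of freedom each) on transcript GC content and exon length.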

Additional observations from a re-analysis of the deposited data

How the results depend on the processing

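Of the 7 tested genes, 0 changed in 14 of 16 alternatives; with library totals alone, and with a filter of 1 CPM in 3 libraries, 1 did, LRP1 (log2 change -0.15 and -0.11). CD14 stayed below 0 in all 16. Values near 0 turned in sign, none past the threshold. With library totals alone CALR was at -0.033 and SIRPA at -0.034. With the length and GC trends removed SFTPD was at -0.045, CALR at -0.039, SIRPA at -0.0023, CD47 at 0.066 and TLR4 at 0.089, and with the replicate block as well SFTPD at -0.099, CALR at -0.038, CD47 at 0.067 and TLR4 at 0.10. With 1 library left out SFTPD ran from -0.26 to 0.22, CALR from -0.0045 to 0.026, SIRPA from -0.027 to 0.051, CD47 from -0.11 to 0.052, TLR4 from -0.23 to 0.12, and the TLR2 ratio from 0.967 to 2.78.

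Over all genes 2526 changed as reported, 1534 with DESeq2, 1682 with the length and GC trends removed (1257 higher, 425 lower), 1480 with the replicate block as well, and 1678 to 2182 with 1 library left out, the lowest without rhSP-D replicate 1. The labels do not say whether same-numbered libraries were paired. Same-numbered libraries deviated from their group means with correlations of -0.079, -0.068 and 0.027, and unlike-numbered ones with -0.057 to 0.126. With 3 libraries per group these values cannot decide whether a batch was shared. The replicate block alone gave 2319 changed genes and 0 of the 7.

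Counts of changed genes moved in some lists. With the length and GC trends removed there were 3 for TLR adapters, 0 for other TLRs, 2 for the LRP1 family and 4 for calreticulin partners. With library totals alone there were 1 for other TLRs (lower, none higher), 1 for other SP-D binding proteins and 6 for SFTPD promoter factors. The causes were not tested. Depth limits what can be seen for SFTPD, TLR2, TLR4, LY96 and CD14. SFTPD was not tested with the 1 CPM filter or after thinning.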
